A study of Danio rerio with 23 samples.

Results

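Liver RNA of wild-type zebrafish was compared between fish that received Oligo-Fucoidan (OF) around a 10 Gy irradiation and fish that were irradiated with 10 Gy alone. The comparison uses 4 of the 23 arrays of the series, namely every wild-type array of the second batch, with 2 arrays of the OF + 10 Gy group and 2 arrays of the 10 Gy group. OF is a low molecular weight preparation of fucoidan, the sulfated polysaccharide of brown seaweed. Both groups were wild-type fish (AB strain) on a normal diet, and livers are labelled as taken at 6 months of age. The OF + 10 Gy fish were given 300 mg/kg OF by oral gavage, repeatedly over about a month before irradiation and again after it, whereas the 10 Gy fish are labelled as untreated (mock). The irradiation is labelled as γ-irradiation and described in the methods as X-ray. The sex of the wild-type fish and whether the 2 arrays of a group came from separate fish or pools are not stated in the labels or methods, so the p-values measure only the spread between arrays. The other arrays of the series served to estimate the spread of each probe set and for comparisons of the difference with and without OF. They comprise wild-type fish at 40 Gy with OF (2 arrays) and without (2 arrays), female HBx,src fish with diet-induced obesity (DIO) at 40 Gy with OF (4 arrays) and without (3 arrays), and female HBx,src,p53- fish with DIO at 10 Gy with OF (5 arrays) and without (3 arrays). In the transgenic fish, of which the HBx,src,p53- fish also carry 1 mutant p53 allele (p53-/+), the liver-specific fabp10a promoter drives the hepatitis B virus X antigen and the src oncogene. No unirradiated liver was analysed here.

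The liver parenchyma consists mainly of hepatocytes, which secrete plasma proteins and lipoproteins, degrade amino acids, make bile acids and glucose, and detoxify drugs and hormones. In egg-laying females, oestrogen also makes the liver produce vitellogenins, the yolk precursors that the blood carries to growing oocytes. The ovary lies next to the liver in the zebrafish body cavity. Its oocytes store large amounts of maternal RNA, including RNA of meiosis and cell cycle genes, so that genes of oocytes, of yolk and of hepatocytes have to be read apart in this comparison.

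Values are log2 probe set signals, a gene is represented by its brightest probe set, differences are OF + 10 Gy minus 10 Gy on the log2 scale, and errors after ± are standard errors of the fit (n = 2 arrays a group). Same-group arrays correlated at r = 0.898 to 0.965 over the whole series. The OF + 10 Gy arrays correlated with each other at r = 0.963 and the 10 Gy arrays at r = 0.955, whereas correlations between the groups were 0.903 to 0.905. Array medians were 2.53 and 2.49 in OF + 10 Gy livers and 2.52 and 2.56 in 10 Gy livers. With limma's moderated test and Benjamini-Hochberg adjustment over all probe sets, 555 of 21125 genes were higher in OF + 10 Gy livers (2.63% of the genes tested) and 1380 were lower (6.53%). At the level of probe sets, 1306 were higher (1.74%) and 2527 lower (3.36%). The count of higher genes rested on all 4 arrays, since it was 257 without the first 10 Gy array, 219 without the second 10 Gy array, 288 without the first OF + 10 Gy array and 261 without the second. The lower genes numbered 989 to 1161 under the same omissions. A leave-one-out fit leaves 1 array in a group, which is then assumed to vary like the other groups.

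Most genes of an ovary and oocyte list were lower in OF + 10 Gy livers. The mean log2 level of the 60 genes of this list was 2.66 and 2.6 in OF + 10 Gy livers, against 6.37 and 6.19 in 10 Gy livers. All 60 of these genes had a negative difference, 46 were called lower (76.7%, against 6.53% of all genes) and the median difference was -4.01. The ovary genes were therefore low on both OF + 10 Gy arrays and high on both 10 Gy arrays. dazl, a germ cell RNA-binding protein, had a log2 signal of 1.74 and 1.50 in OF + 10 Gy livers and 8.26 and 7.71 in 10 Gy livers (log2 difference -6.37 ± 0.31, adjusted p = 2e-10). zpd, an egg coat protein, had 1.53 and 1.58 in OF + 10 Gy livers and 6.19 and 6.47 in 10 Gy livers (-4.78 ± 0.19, adjusted p = 2.5e-11). bmp15, an oocyte growth factor, had 2.06 and 2.29 in OF + 10 Gy livers and 6.28 and 6.89 in 10 Gy livers (-4.41 ± 0.25, adjusted p = 1.6e-09). The second probe sets of dazl, zpd and bmp15 differed by -1.22, -0.60 and -0.70, and none of them was called. In OF + 10 Gy livers these 3 genes lay below the array median, where the signal has little resolution. With such signals raised to the array median, the difference was -5.48 for dazl, -3.82 for zpd and -4.07 for bmp15, and the list median was -3.35. In bulk RNA, fewer cells of a type and less RNA per cell cannot be told apart.

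The 10 Gy livers, rather than the OF + 10 Gy livers, stood apart from the rest of the series in these genes. For all 46 called ovary genes both 10 Gy arrays lay above each of the other 19 arrays outside the comparison, and the same held for 1187 of the 1380 genes called lower. The opposite position was rarer on the higher side. Of the 555 higher genes, 21 had both 10 Gy arrays below those 19 arrays and 195 had both OF + 10 Gy arrays above them. Cell cycle genes followed the ovary list, with 60 of 76 lower (78.9%, against 6.53% of all genes), none higher and a median of -3.27. Examples were ccnb2 (2.71 and 2.83 in OF + 10 Gy livers, 7.38 and 7.49 in 10 Gy livers) and the oocyte kinase gene wee2 (1.48 and 1.53 in OF + 10 Gy livers, 5.08 and 5.03 in 10 Gy livers), with adjusted p = 2.5e-11 and 1.7e-11.

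**Figure D1:**
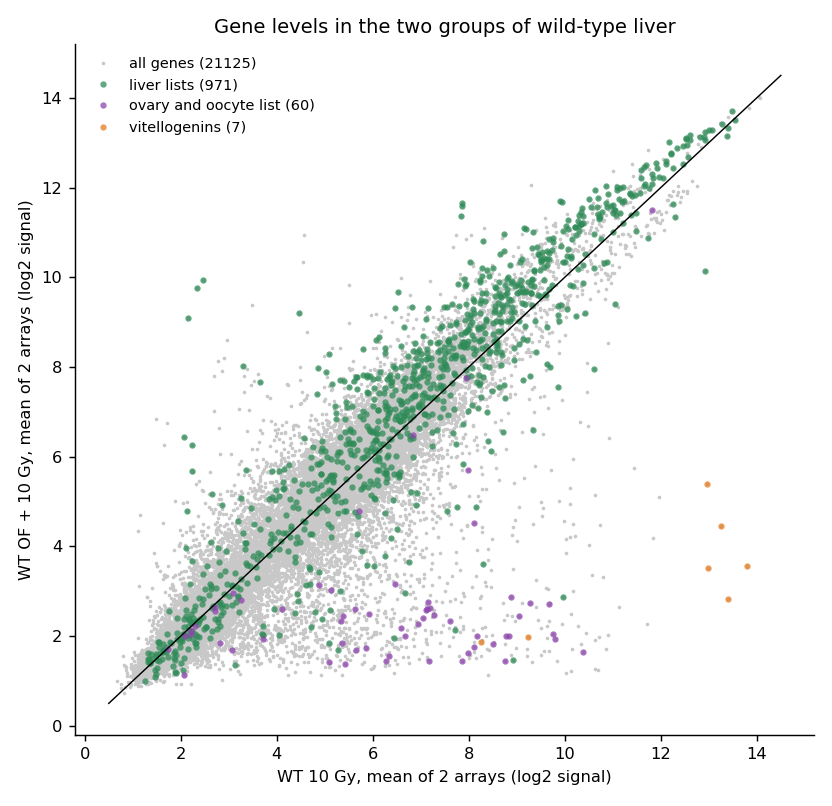
Mean log2 signal of every gene in OF + 10 Gy livers (vertical axis, 2 arrays) against 10 Gy livers (horizontal axis, 2 arrays), with genes of the liver lists (green), the ovary and oocyte list (purple) and the vitellogenins (orange). The line marks equal signals. Most ovary genes and the 7 vitellogenins lie far below the line, and most liver genes lie close to it.

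The 3 largest differences of all genes belonged to vitellogenins. The 7 measured vitellogenins ranged from 1.46 to 6.55 in OF + 10 Gy livers and from 7.16 to 13.89 in 10 Gy livers. vtg2 had 3.96 and 3.18 in OF + 10 Gy livers and 13.71 and 13.89 in 10 Gy livers (-10.23 ± 2.38, adjusted p = 0.014). vtg3 differed by -10.57 ± 2.65 (adjusted p = 0.024), vtg4 by -7.58 ± 1.45 (0.0028), vtg5 by -7.24 ± 1.92 (0.033), vtg6 by -9.47 ± 2.29 (0.019) and vtg7 by -8.79 ± 1.77 (0.0046), while vtg8 did not pass the test (-6.37 ± 2.25, adjusted p = 0.13). On the 10 Gy arrays vtg2, vtg3, vtg4, vtg6 and vtg7 were within 2 log2 units of the top of the scale, where signals may be compressed. The calls of vtg2, vtg3, vtg5 and vtg6 were lost whichever of the 4 arrays was left out (adjusted p = 0.064 to 0.18), and those of vtg4 and vtg7 without the second OF + 10 Gy array (adjusted p = 0.055 and 0.065). The wide errors go with the HBx,src,p53- DIO OF + 10 Gy group, whose 5 arrays had vitellogenin means of 4.39, 12.24, 12.28, 5.24 and 12.33. With the spread estimated from the 18 arrays outside that group, an alternative added after the values were seen, vtg2 had an adjusted p of 5.7e-09 and vtg8 one of 0.016. This alternative leaves out the spread between the equally treated arrays of that group.

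Yolk and ovary genes did not go together over the series. The vitellogenin mean was 4.01 and 2.74 in OF + 10 Gy livers and 11.57 and 12.39 in 10 Gy livers. Wild-type livers at 40 Gy had vitellogenin means of 5.05 and 5.20 with OF and 3.82 and 3.55 without. The HBx,src fish and the HBx,src,p53- DIO 10 Gy fish had means from 10.37 to 12.54 while their ovary list means were 2.2 to 3.57. With the ovary list mean of each array as a covariate, which separates the 4 arrays as the groups do, 19 genes were called higher and 39 lower, and with the vitellogenin mean as a covariate 59 were called higher and 901 lower. What ovary RNA and the yolk state of the fish contributed to the differences of other genes was not tested.

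**Figure D2:**
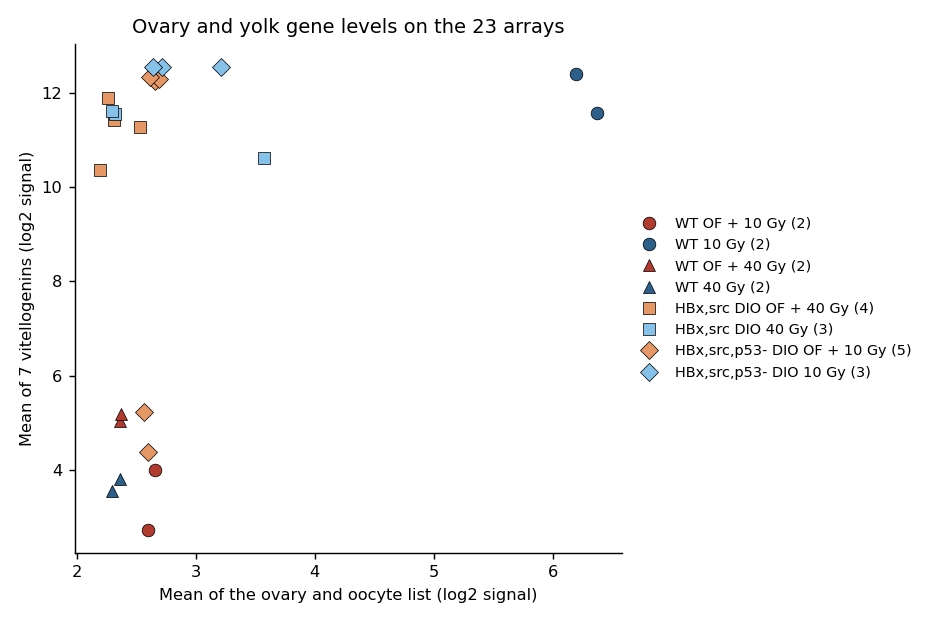
Mean log2 signal of 7 vitellogenins (vertical axis) against the mean of the 60 ovary and oocyte genes (horizontal axis) on each of the 23 arrays, 1 point an array, with colours and shapes for the 8 groups. The 2 OF + 10 Gy arrays lie at the low end of both axes, and the 2 arrays of the wild-type 10 Gy group are the only points with an ovary mean above 6.

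Genes of liver function were described apart from these groups, as the 971 genes that belong to a list of liver functions and to no list of another cell type. Of them, 53 were higher in OF + 10 Gy livers (5.46%, against 2.63% of all genes) and 30 were lower (3.09%, against 6.53% of all genes), with a median difference of 0.39 beside 0.03 over all genes. The position against the other 19 arrays differed between the sides. Among the 30 lower liver genes 19 had both 10 Gy arrays above all of those arrays. This compares with 1187 of all 1380 lower genes and with all 46 called ovary genes. Among the 53 higher liver genes 4 had both 10 Gy arrays below the other 19 arrays and 12 had both OF + 10 Gy arrays above them. Among all 555 higher genes these counts were 21 and 195.

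Most of the liver identity genes did not pass the test. None of 41 hepatocyte markers was called, although 35 of them had a positive difference and the median was 0.47. The median log2 level of the markers was 12.37 and 12.37 in OF + 10 Gy livers, against 11.95 and 11.67 in 10 Gy livers. With each array centred on the median of these markers, the median of all genes fell to -0.53, a shift of -0.56, and 124 genes were higher and 2210 lower. List medians of about 0.5 on the scale of the arrays thus lie near 0 on this hepatocyte scale. Among 39 hepatocyte transcription factors 3 were higher (7.69%, against 2.63% of all genes) and 1 lower (2.56%, against 6.53% of all genes). Their median was 0.56, and near 0 on the hepatocyte scale. pparab, a fatty acid-sensing nuclear receptor, had 8.62 and 8.17 in OF + 10 Gy livers and 5.74 and 5.85 in 10 Gy livers (2.59 ± 0.51, adjusted p = 0.0034, a 6.04-fold difference), and it remained called whichever array was left out. nr5a2 was higher by 1.07 (adjusted p = 0.029) and prox1a by 1.77 (0.048), but nr5a2 lost its call whichever array was left out (0.063 to 0.21) and prox1a without the second 10 Gy array (0.36) or either OF + 10 Gy array (0.12 and 0.25). hnf4a, the hepatocyte nuclear factor that the study followed, had 9.45 and 9.71 in OF + 10 Gy livers and 8.86 and 8.22 in 10 Gy livers. The difference of 1.04 (95% interval 0.35 to 1.73) had an adjusted p of 0.085 and did not pass the test. Its 3 probe sets differed by 1.04 to 1.49, and 1 of them was called.

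**Figure D3:**
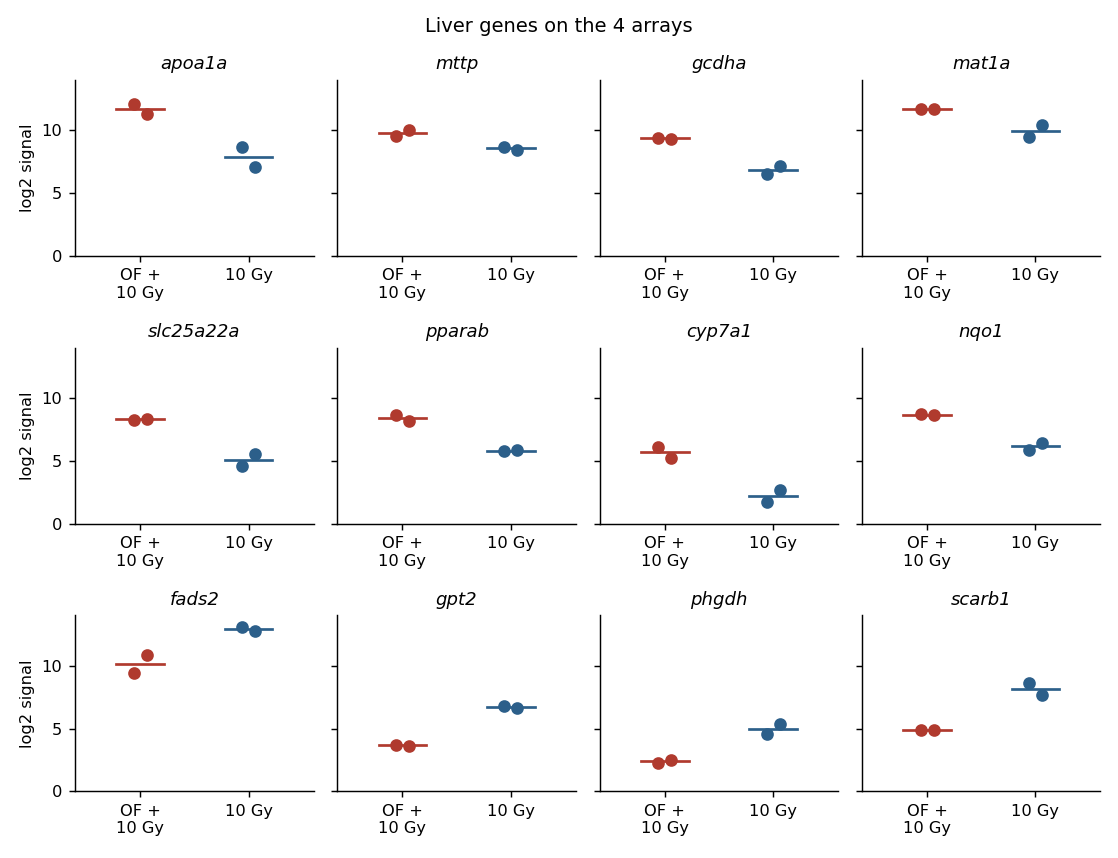
Log2 signal of 12 liver genes on the 2 OF + 10 Gy arrays (left, red) and the 2 arrays of the 10 Gy group (right, blue), 1 point an array, with lines at the group means. The 2 groups do not overlap for any of these genes, and the first 8 genes are higher and the last 4 lower in OF + 10 Gy livers. The 12 genes were chosen from those called, so that their separation is no further evidence.

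Lipoprotein genes held the liver gene with the clearest increase. Apolipoproteins are the protein shells of the particles in which liver and gut export lipids. Of 30 genes of apolipoproteins and lipoprotein export, 4 were higher (13.3%, against 2.63% of all genes). Another 2 were lower (6.67%, against 6.53% of all genes), and the list median was 0.45. apoa1a, a main protein of high-density lipoprotein, had 12.05 and 11.27 in OF + 10 Gy livers and 8.63 and 7.08 in 10 Gy livers (3.81 ± 0.52, adjusted p = 7.9e-05, 14-fold). It stayed called whichever array was left out and on the hepatocyte scale (3.25, adjusted p = 0.00013). The other 19 arrays had 9.30 to 12.09, so that the 10 Gy arrays were the low ones. Its paralogue apoa1b had 13.51 and 13.51 in OF + 10 Gy livers and 13.60 and 13.49 in 10 Gy livers (-0.04, 95% interval -0.32 to 0.24), close to the top of the scale in both groups.

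The gene of the microsomal triglyceride transfer protein, mttp, which loads lipid onto nascent lipoproteins, had 9.55 and 10.02 in OF + 10 Gy livers and 8.67 and 8.41 in 10 Gy livers (1.25 ± 0.21, adjusted p = 0.00072), and 0.68 (adjusted p = 0.15) on the hepatocyte scale. Of the tandem genes related to apolipoprotein A-IV, apoa4b.1 was higher by 2.23 (adjusted p = 0.049) and apoa4b.3 by 4.38 (0.015). apoa4b.1 lost its call whichever array was left out (0.068 to 0.31) and apoa4b.3 without the first 10 Gy array (0.12), the first OF + 10 Gy array (0.061) or the second (0.11). scarb1, the high-density lipoprotein receptor, moved the other way, with 4.90 and 4.86 in OF + 10 Gy livers and 8.61 and 7.69 in 10 Gy livers (-3.27 ± 0.35, adjusted p = 3.9e-06). apoda.2 was also lower (-2.02 ± 0.17, adjusted p = 1.4e-07). For both, the 10 Gy arrays lay above the other 19 arrays, which had at most 5.33 for scarb1. apoa2, apoeb and the remaining apolipoproteins did not pass the test, with 0.65 for apoa2 (adjusted p = 0.15) and 0.42 for apoeb (0.86).

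Other secreted liver proteins gave few calls. Coagulation genes numbered 31 (median 0.52), of which 2 were higher (6.45%, against 2.63% of all genes) and 1 lower (3.23%, against 6.53% of all genes). f3b, a tissue factor gene, had 2.90 and 3.1 in OF + 10 Gy livers and 5.51 and 5.11 in 10 Gy livers (-2.31 ± 0.42, adjusted p = 0.0017), and its 10 Gy arrays also lay above the other 19 arrays. f7l was higher by 1.43 (adjusted p = 0.014) but not without the second 10 Gy array (0.15) or the second OF + 10 Gy array (0.12), and proca, a protein C gene, was higher by 1.12 (0.032) but not without either 10 Gy array (0.15 and 0.11) or the first OF + 10 Gy array (0.28). Of 28 complement genes 27 had a positive difference (median 0.57) and 1 was called, c8g, a subunit gene of the membrane attack complex (0.81 ± 0.23, adjusted p = 0.0495, and 0.1 to 0.26 with 1 array left out). None of 45 plasma carriers and acute phase genes was called. In that list igf1, a growth factor gene, had 9.26 and 9.38 in OF + 10 Gy livers and 6.4 and 7.92 in 10 Gy livers (2.16 ± 0.75, adjusted p = 0.13). On the hepatocyte scale the median was -0.04 for coagulation, near 0 for complement and -0.11 for the plasma carriers. The markers that set this scale themselves include fibrinogen, complement and plasma carrier genes, so that medians near 0 are partly built in.

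Amino acid breakdown was the liver function with the most higher genes. Of 81 genes of amino acid catabolism and the urea cycle, 16 were higher (19.8%, against 2.63% of all genes). In the lower direction 1 was called (1.23%, against 6.53% of all genes). A positive difference was found for 71, with a median of 0.96. On the hepatocyte scale 8 were higher and 3 lower, against 124 and 2210 of all 21125 genes, and the median was 0.40. With 1 array left out, most of the 16 calls were lost, and the median was 0.88 to 0.96. gcdha, the glutaryl-CoA dehydrogenase of lysine and tryptophan breakdown, had 9.36 and 9.31 in OF + 10 Gy livers and 6.48 and 7.13 in 10 Gy livers (2.53 ± 0.39, adjusted p = 0.00033, 5.76-fold). This call held whichever array was left out.

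mat1a, the liver enzyme that makes S-adenosylmethionine, had 11.71 and 11.71 in OF + 10 Gy livers and 9.41 and 10.41 in 10 Gy livers (1.80 ± 0.35, adjusted p = 0.0037, and 0.088 without the first 10 Gy array). The alanine aminotransferase gene gpt had 10.57 and 11.06 in OF + 10 Gy livers and 7.89 and 8.68 in 10 Gy livers (2.53 ± 0.51, adjusted p = 0.0045), and its call was lost without the first 10 Gy array (0.074) or the second OF + 10 Gy array (0.059). gls2a, a glutaminase gene, was higher by 4.01 (adjusted p = 0.007), and just missed the threshold without the second 10 Gy array or the second OF + 10 Gy array (0.053 each). For cth, the cystathionine gamma-lyase of cysteine synthesis, and oat, the ornithine aminotransferase, differences of 2.39 and 2.84 (adjusted p = 0.012 and 0.02) were called with all arrays but not with any of them left out (0.064 to 0.073 and 0.08 to 0.12).

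Amino acid transporters had 6 of 44 genes higher (13.6%, against 2.63% of all genes) and none lower (median 0.27). slc25a22a, a mitochondrial glutamate carrier, had 8.22 and 8.35 in OF + 10 Gy livers and 4.62 and 5.54 in 10 Gy livers (3.2 ± 0.66, adjusted p = 0.0051). The cationic amino acid transporter slc7a2 had 9.98 and 9.74 in OF + 10 Gy livers and 7.50 and 8.06 in 10 Gy livers (2.08 ± 0.40, adjusted p = 0.0029). Both narrowly lost the call without the first 10 Gy array (0.077 and 0.052). slc38a3a, a glutamine transporter of liver, had the largest difference among liver genes called higher, with 8.93 and 9.26 in OF + 10 Gy livers and 2.23 and 2.06 in 10 Gy livers (6.95 ± 1.70, adjusted p = 0.021). Its level varied widely in the rest of the series (2.02 to 10.3), and the call was lost whichever array was left out (0.094 to 0.11).

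Several genes of amino acid synthesis were lower, in a list with about as many positive as negative differences. Of 31 genes of serine, proline and asparagine synthesis 14 had a positive and 17 a negative difference (median -0.04), 1 was called higher and 5 lower (16.1%, against 6.53% of all genes), and 4 or 5 were called lower with 1 array left out. phgdh, the first enzyme of serine synthesis, had 2.27 and 2.51 in OF + 10 Gy livers and 4.56 and 5.34 in 10 Gy livers (-2.56 ± 0.38, adjusted p = 0.00023). psat1, the next enzyme of the pathway, had 2.71 and 2.35 in OF + 10 Gy livers and 4.65 and 4.93 in 10 Gy livers (-2.26 ± 0.33, adjusted p = 0.00016). The second probe set of psat1 differed by -0.22 and was not called. aldh18a1, which starts proline synthesis, had 6.04 and 6.66 in OF + 10 Gy livers and 8.39 and 8.39 in 10 Gy livers (-2.04 ± 0.25, adjusted p = 2.5e-05). The mitochondrial alanine aminotransferase gene gpt2, the counterpart of gpt, had 3.68 and 3.63 in OF + 10 Gy livers and 6.82 and 6.67 in 10 Gy livers (-3.09 ± 0.38, adjusted p = 2.1e-05). These 4 calls held whichever array was left out. Among them, only phgdh had both 10 Gy arrays above the other 19 arrays, whose highest values were 7.19 for gpt2 and 8.53 for psat1.

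**Figure D4:**
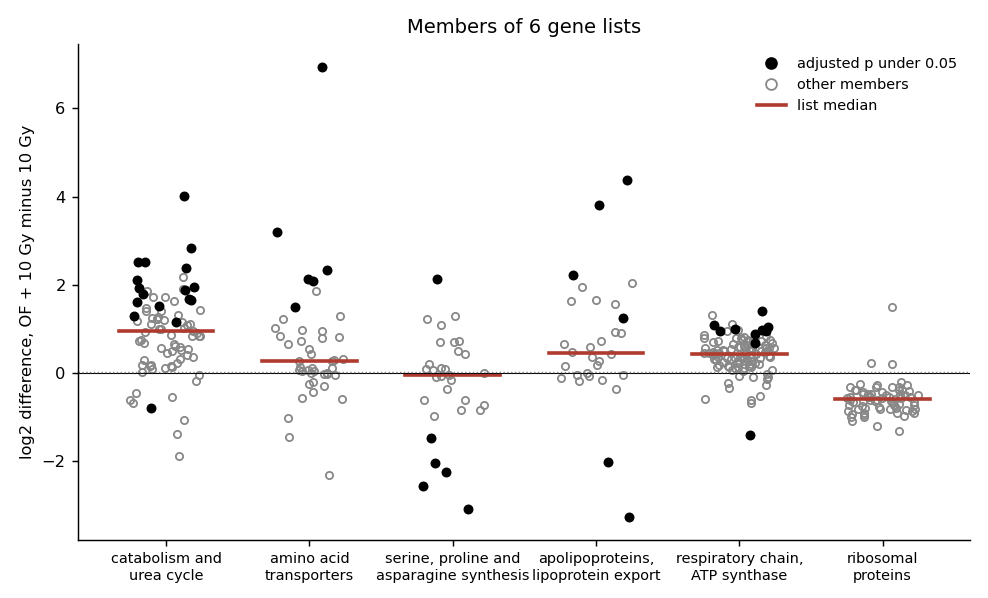
Log2 difference of OF + 10 Gy over 10 Gy livers (vertical axis) for every measured member of 6 gene lists, with members at an adjusted p under 0.05 filled, the others open, and a red line at the list median. Amino acid catabolism lies mostly above 0 with 16 members called higher, the synthesis list has 5 called lower, and 67 of 70 ribosomal protein genes lie below 0 with none called.

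Glycolysis and glycogen genes showed no common direction (51 genes, median 0.06). In this list 2 were higher (3.92%, against 2.63% of all genes) and 4 lower (7.84%, against 6.53% of all genes). The paralogues of triosephosphate isomerase split. tpi1a had 3.01 and 2.91 in OF + 10 Gy livers and 6.55 and 6.78 in 10 Gy livers (-3.70 ± 0.32, adjusted p = 2.2e-07), whereas tpi1b had 9.84 and 10.48 in OF + 10 Gy livers and 8.36 and 8.38 in 10 Gy livers (1.78 ± 0.50, adjusted p = 0.044, and 0.077 to 0.28 with 1 array left out). The tpi1a values of the 10 Gy arrays lay above those of the other 19 arrays, which had 1.87 to 3.58.

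Fatty acid genes gave few calls. Of 42 genes of lipogenesis and triglyceride storage 2 were higher (4.76%, against 2.63% of all genes). Another 2 were lower (4.76%, against 6.53% of all genes), and the median was 0.58. The 2 lower genes act in the synthesis of long polyunsaturated fatty acids. The desaturase gene fads2 had 9.43 and 10.86 in OF + 10 Gy livers and 13.07 and 12.77 in 10 Gy livers (-2.77 ± 0.58, adjusted p = 0.0064), and the elongase gene elovl2 had 8.19 and 7.71 in OF + 10 Gy livers and 10.94 and 10.26 in 10 Gy livers (-2.65 ± 0.64, adjusted p = 0.019). fads2 lost its call without the first 10 Gy array (0.06) or the first OF + 10 Gy array (0.13), and elovl2 without the first 10 Gy array (0.16) or either OF + 10 Gy array (0.064 and 0.14). The mitochondrial citrate carrier slc25a1b was higher by 1.34 (adjusted p = 0.0058, and 0.058 without the second 10 Gy array) and mogat3b, a monoacylglycerol acyltransferase gene, by 2.03 (0.035, and 0.089 to 0.2 with 1 array left out). fasn and srebf1, both followed by the study as lipogenic genes, differed by 0.53 (95% interval -1.98 to 3.03) and 0.46 (-0.44 to 1.36), and pparg by -0.16 (-1.23 to 0.91). agpat4, an acyltransferase gene that the study followed with them, had 3.02 and 4.18 in OF + 10 Gy livers and 7.98 and 8.63 in 10 Gy livers. The difference of -4.70 ± 1.52 had an adjusted p of 0.095. With the spread estimated without the HBx,src,p53- DIO OF + 10 Gy group the adjusted p was 3.7e-05. In that group agpat4 ranged from 3.53 to 9.57, and this alternative, added after the values were seen, leaves that spread out.

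Genes of the carnitine shuttle and fatty acid oxidation had 43 of 48 positive differences and a median of 0.84 (0.28 on the hepatocyte scale), but none was called higher. acox3, a peroxisomal oxidase gene, had 9.97 and 9.50 in OF + 10 Gy livers and 8.89 and 8.71 in 10 Gy livers (0.93 ± 0.29, adjusted p = 0.079). The single call was oxct1a, the ketone body-using transferase, with 1.91 and 1.78 in OF + 10 Gy livers and 5.15 and 5.03 in 10 Gy livers (-3.25 ± 0.17, adjusted p = 4e-10). In the other 19 arrays oxct1a was at 1.4 to 2.07. Its 3 probe sets differed by -3.25 to -0.48, and 2 of them were called.

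Sterol genes had mostly negative differences (23 of 31, median -0.37). hmgcra, the rate-limiting enzyme of cholesterol synthesis, was the only one called, with 1.36 and 1.6 in OF + 10 Gy livers and 9.30 and 8.55 in 10 Gy livers (-7.45 ± 2.02, adjusted p = 0.039, and 0.12 to 0.18 with 1 array left out). The values of both OF + 10 Gy arrays lay below the array median, and with such signals raised to the array median the difference was -6.42 (adjusted p = 0.12). The other 19 arrays had 2.19 to 11.9. The sterol exporter gene abcg5 had 8.24 and 7.12 in OF + 10 Gy livers and 5.80 and 4.99 in 10 Gy livers (2.28 ± 0.70, adjusted p = 0.072).

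Bile acid genes had 24 of 27 positive differences and a median of 0.61. In this list 2 were higher (7.41%, against 2.63% of all genes) and 1 lower (3.70%, against 6.53% of all genes). cyp7a1, the rate-limiting enzyme of bile acid synthesis, had 6.11 and 5.25 in OF + 10 Gy livers and 1.75 and 2.70 in 10 Gy livers (3.46 ± 0.73, adjusted p = 0.007). The other 19 arrays did not exceed 3.79, so that the OF + 10 Gy arrays had the highest cyp7a1 of the series. Its call was lost without the first 10 Gy array or the first OF + 10 Gy array (0.09 each), and its second probe set differed by 0.09. cyp8b1.2, a sterol 12-alpha-hydroxylase gene, had 4.51 and 3.70 in OF + 10 Gy livers and 2.48 and 2.78 in 10 Gy livers (1.48 ± 0.28, adjusted p = 0.0028, and 0.077 without the first OF + 10 Gy array). atp8b1, a lipid flippase of the canalicular membrane, had 1.64 and 1.76 in OF + 10 Gy livers and 5.28 and 5.27 in 10 Gy livers (-3.57 ± 0.26, adjusted p = 3e-08), with 1.46 to 2.91 in the other 19 arrays.

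Detoxification genes gave few calls. Cytochrome P450 genes of families 1 to 4 numbered 52, none of which passed the test (median 0.38). cyp2k22 nevertheless had 9.77 and 10.12 in OF + 10 Gy livers and 2.08 and 2.85 in 10 Gy livers (7.49 ± 2.41, adjusted p = 0.093), and cyp2k6 had 2.26 and 3.47 in OF + 10 Gy livers and 9.88 and 10.02 in 10 Gy livers (-7.09 ± 2.26, adjusted p = 0.088). The reductase gene hsd17b3, which makes testosterone, had 9.81 and 9.71 in OF + 10 Gy livers and 2.24 and 2.45 in 10 Gy livers (7.42 ± 2.26, adjusted p = 0.072). As for the vitellogenins, the spread was wide in the HBx,src,p53- DIO OF + 10 Gy group, where hsd17b3 ranged from 1.78 to 10.9. In that group cyp2k22 ranged from 1.66 to 11.05 and cyp2k6 from 1.49 to 10.13. Estimated without that group, the adjusted p was 4.7e-07 for cyp2k22, 2.3e-06 for cyp2k6 and 5e-08 for hsd17b3. This alternative was added after the values were seen and leaves out the widest spread between equally treated arrays. These p-values therefore do not replace those of the main fit. Of 66 phase II conjugation genes (median 0.60) 3 were higher (4.55%, against 2.63% of all genes) and 1 lower (1.52%, against 6.53% of all genes). ugt5b4, a glucuronosyltransferase gene, was higher by 2.17 (adjusted p = 0.017, and 0.074, 0.11 and 0.23 without the first 10 Gy, the second 10 Gy and the first OF + 10 Gy array), and gsto2 was lower by 1.49 on the log2 scale (adjusted p = 0.0023).

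Antioxidant genes of the Nrf2, glutathione and thioredoxin list had 3 of 56 higher (5.36%, against 2.63% of all genes). In the lower direction 1 was called (1.79%, against 6.53% of all genes). The list median was 0.46, and -0.10 on the hepatocyte scale. nqo1, a quinone reductase, had 8.72 and 8.63 in OF + 10 Gy livers and 5.88 and 6.39 in 10 Gy livers (2.54 ± 0.60, adjusted p = 0.016). The glutathione peroxidase gene gpx1a had 11.06 and 11.23 in OF + 10 Gy livers and 10.18 and 9.86 in 10 Gy livers (1.13 ± 0.28, adjusted p = 0.021). nqo1 lost its call without the first 10 Gy array (0.13) or either OF + 10 Gy array (0.096 and 0.078), and gpx1a without the second 10 Gy array (0.17) or either OF + 10 Gy array (0.075 and 0.14). gpx8, a peroxidase of the endoplasmic reticulum, was lower (2.19 and 1.86 in OF + 10 Gy livers, 4.14 and 3.28 in 10 Gy livers, adjusted p = 0.00048). The second probe set of gpx8 differed by -0.58 and was not called. Among short-chain, alcohol and aldo-keto reductases 63 of 83 had a positive difference (median 0.47), 1 was called higher and 5 lower (6.02%, against 6.53% of all genes). The higher gene was akr1b1.1, an aldo-keto reductase (2.86 ± 0.66, adjusted p = 0.014, and 0.16, 0.053 and 0.11 without the first 10 Gy array and either OF + 10 Gy array). The lower genes included rdh10b, a retinol dehydrogenase (-2.76 ± 0.38, adjusted p = 8.6e-05), and aldh3b1 (-2.51 ± 0.25, adjusted p = 1.8e-06). The second probe set of aldh3b1 differed by -0.75 and was not called. For gpx8, gsto2, rdh10b and aldh3b1 the 10 Gy arrays lay above the other 19.

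Of 31 steroid hormone enzymes 15 had a positive and 16 a negative difference (median -0.06), none was called higher and 3 were called lower (9.68%, against 6.53% of all genes). The 3 lower genes were cyp11a1.1, the side-chain cleavage enzyme that opens steroid synthesis (-4.48 ± 0.22, adjusted p = 2.3e-10), cyp17a1 (-3.11 ± 0.28, adjusted p = 4.5e-07) and hsd3b2 (-2.60 ± 0.30, adjusted p = 9.9e-06). The second probe set of cyp17a1 differed by -0.27 and was not called. cyp11a1.1 had 1.78 and 1.62 in OF + 10 Gy livers and 6.26 and 6.1 in 10 Gy livers. All 3 were above the other 19 arrays on both 10 Gy arrays, as the called ovary genes were. For hsd3b2 both OF + 10 Gy arrays lay above those 19 arrays as well.

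Genes of the secretory machinery had mixed directions. The list of translocation into the endoplasmic reticulum and N-glycosylation had 39 of 52 negative differences (median -0.45). In it 1 gene was higher (1.92%, against 2.63% of all genes) and 3 lower (5.77%, against 6.53% of all genes). alg13, a subunit of the enzyme that adds the second sugar of N-glycans, had 2.14 and 1.76 in OF + 10 Gy livers and 6.71 and 6.18 in 10 Gy livers (-4.49 ± 0.34, adjusted p = 6.3e-08, with 1.89 to 3.53 in the other 19 arrays). tram2, a translocation protein gene, had 6.30 and 6.79 in OF + 10 Gy livers and 8.98 and 8.45 in 10 Gy livers (-2.17 ± 0.31, adjusted p = 0.00015). Chaperones and stress genes of the endoplasmic reticulum gave 3 higher of 44 (6.82%, against 2.63% of all genes). Among them was the oxidase gene ero1b (1.86, adjusted p = 0.014). Its call was lost without the second 10 Gy or the second OF + 10 Gy array. Vesicle coat and Golgi genes gave 3 higher of 51 (5.88%, against 2.63% of all genes). Among them was sec31a of the COPII coat (1.85, adjusted p = 0.025), whose call was lost whichever array was left out.

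Genes of protein synthesis and respiration gave few calls but had mostly 1 direction. Ribosomal protein genes had a negative difference in 67 of 70 cases with a median of -0.59, but none was called. rps7, with the smallest p of the list, had 9.54 and 8.82 in OF + 10 Gy livers and 10.30 and 10.48 in 10 Gy livers (-1.20 ± 0.43, adjusted p = 0.14). Of 104 genes of the respiratory chain and ATP synthase 91 had a positive difference (median 0.44). In this list 9 were called higher (8.65%, against 2.63% of all genes) and 1 lower (0.96%, against 6.53% of all genes). cox8b, a cytochrome c oxidase subunit, had 8.72 and 8.73 in OF + 10 Gy livers and 6.99 and 7.64 in 10 Gy livers (1.41 ± 0.25, adjusted p = 0.0012). ndufb6, a complex I subunit, was higher by 0.95 (adjusted p = 0.0085, but 0.097, 0.053 and 0.059 without the second 10 Gy array and either OF + 10 Gy array). On the hepatocyte scale the median was -0.12 and none of the list was higher. None of 45 proteasome subunits or of 38 heat shock genes was called (medians 0.23 and 0.14).

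Targets of p53 and DNA damage were called lower in a share near that of all genes. Of 45 such targets 4 were lower (8.89%, against 6.53% of all genes) and none higher, and the median was 0.37. plk3, a stress kinase gene, had 5.31 and 5.71 in OF + 10 Gy livers and 9.08 and 9.22 in 10 Gy livers (-3.64 ± 0.59, adjusted p = 0.00057). pmaip1, the Noxa gene of apoptosis, had 2.72 and 3.55 in OF + 10 Gy livers and 6.81 and 6.34 in 10 Gy livers (-3.44 ± 0.82, adjusted p = 0.017). pmaip1 lost its call without either 10 Gy array (0.12 and 0.062) or the first OF + 10 Gy array (0.15). The other 2 were ppm1db, a phosphatase gene that ends the p53 response (-1.25, adjusted p = 0.01, and 0.1 and 0.097 without the first 10 Gy or the second OF + 10 Gy array), and the replication clamp gene pcna (-2.54, adjusted p = 0.035, and 0.072 to 0.22 with 1 array left out).

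Of 39 genes of double-strand break repair 15 were lower (38.5%, against 6.53% of all genes) and none higher. Their median was -0.73, and -0.61 to -0.74 with 1 array left out. blm, a RecQ helicase, had 1.77 and 2.6 in OF + 10 Gy livers and 5.97 and 5.77 in 10 Gy livers (-3.69 ± 0.26, adjusted p = 1.9e-08). rif1, which guides the choice of repair pathway, had 4.21 and 4.28 in OF + 10 Gy livers and 6.68 and 6.80 in 10 Gy livers (-2.50 ± 0.34, adjusted p = 8.7e-05). paxx and rad54b were lower by similar tests (-1.47 and -1.79, adjusted p = 1.7e-05 and 3.9e-05). Both 10 Gy arrays lay above the other 19 arrays for 13 of these 15 repair genes and for 3 of the 4 p53 targets. The same held for 1187 of all 1380 lower genes. The proliferation genes ccne1, cdk1 and cdk2, which the study followed by qPCR in wild-type fish at 40 Gy, were lower as well. These 3 remained called whichever array was left out. On the wild-type 40 Gy arrays the means with and without OF were 1.95 and 2.09 for ccne1 and 1.58 and 1.79 for cdk1. For cdk2 they were 2.78 and 2.48. At 10 Gy the differences were larger. ccne1 had 2.14 and 1.80 in OF + 10 Gy livers and 7.75 and 7.58 in 10 Gy livers (-5.70 ± 0.42, adjusted p = 3.8e-08), cdk1 differed by -4.69 ± 0.42 (3.8e-07) and cdk2 by -3.58 ± 0.64 (0.0014). The ovary list moved with all of these genes, and its part in their differences was not tested.

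Some markers of blood and of other liver cells were called as well. Of 35 erythrocyte genes 15 were higher (42.9%, against 2.63% of all genes) and none lower (against 6.53% of all genes), with a median of 1.16. Fewer of them were called with 1 array left out. alas2, the erythroid enzyme that starts haem synthesis, had 7.57 and 7.67 in OF + 10 Gy livers and 4.20 and 4.24 in 10 Gy livers (3.40 ± 0.59, adjusted p = 0.001, 10.5-fold), and cahz, the erythrocyte carbonic anhydrase, had 6.05 and 6.31 in OF + 10 Gy livers and 4.11 and 2.85 in 10 Gy livers (2.69 ± 0.45, adjusted p = 0.00082). Both calls held whichever array was left out. The iron importer gene tfr1a was higher by 1.84 (adjusted p = 0.0067, but 0.13 and 0.056 without the second 10 Gy or the first OF + 10 Gy array). The share of the summed signal of all genes held by the erythrocyte list overlapped between the groups, at 0.299% and 0.259% in OF + 10 Gy livers and 0.286% and 0.223% in 10 Gy livers.

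Among non-parenchymal cells, the stellate cell gene hand2, a transcription factor, had 4.83 and 4.84 in OF + 10 Gy livers. It had 2.57 and 2.87 in 10 Gy livers (2.12 ± 0.36, adjusted p = 0.00096). The list of stellate cells and fibroblasts had 3 of 46 higher (6.52%, against 2.63% of all genes). In the lower direction it had 1 call (2.17%, against 6.53% of all genes). Of this list 27 genes had a positive and 19 a negative difference, with a median of 0.34, and -0.22 on the hepatocyte scale. In the endothelial list (median 0.54, and -0.02 on the hepatocyte scale) 3 of 32 were higher (9.4%, against 2.63% of all genes). Among them were the VEGF receptor genes flt1 (1.55, adjusted p = 0.0071) and kdr (1.47, adjusted p = 0.0077). The call of flt1 was lost without the first 10 Gy or the second OF + 10 Gy array. That of kdr was lost without the second 10 Gy or the second OF + 10 Gy array. The neighbouring cathepsin S genes of the macrophage list split, with ctss2.1 at 4.59 and 3.93 in OF + 10 Gy livers and 8.98 and 8.80 in 10 Gy livers (-4.63 ± 0.82, adjusted p = 0.0013) and ctss2.2 at 7.06 and 6.09 in OF + 10 Gy livers and 3.41 and 3.34 in 10 Gy livers (3.2 ± 0.73, adjusted p = 0.013, but 0.068, 0.076 and 0.14 without the first 10 Gy, the second 10 Gy and the first OF + 10 Gy array). Signals of such similar copies cannot be separated with certainty. The list of neutrophils and macrophages had 3 of 55 higher (5.45%, against 2.63% of all genes) and 1 lower (1.82%, against 6.53%). Its median was 0.50, and -0.06 on the hepatocyte scale. Collagens gave 3 higher of 51 (5.88%, against 2.63% of all genes, median -0.05). Lymphocyte and interferon genes gave no call of 36 and 44. In the biliary list 19 of 27 genes had a positive difference (median 0.39). The called shares were 3.70% higher and 11.1% lower, against 2.63% and 6.53% of all genes. Its 1 higher gene was anxa1a, an annexin (2.07 ± 0.45, adjusted p = 0.0093, and 0.12 and 0.11 without the second 10 Gy or the second OF + 10 Gy array). Its 3 lower genes, epcam (-3.80 ± 0.60, adjusted p = 0.00039), cldn7b (-3.22 ± 0.56, 0.0012) and tmprss4a (-4.21 ± 0.39, 6.8e-07), are epithelial genes, and for them both 10 Gy arrays lay above the other 19. The 3 probe sets of epcam differed by -3.80 to -0.94, and 2 of them were called. Exocrine pancreas genes had a negative difference in 32 of 36 cases (median -1.26) but 1 call, amy2al1 (-1.13, adjusted p = 0.025, and 0.22, 0.2 and 0.057 without the first 10 Gy array and either OF + 10 Gy array). The part of these other cells in the differences of the liver genes was not tested.

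Outside the lists, the genes with the largest increases included several of low median signal in the rest of the series. LOC568883 had 10.40 and 10.29 in OF + 10 Gy livers and 4.57 and 4.54 in 10 Gy livers (5.79 ± 0.90, adjusted p = 0.00035, 55.2-fold). cusr had 7.81 and 7.81 in OF + 10 Gy livers and 2.84 and 2.56 in 10 Gy livers (5.11 ± 0.65, adjusted p = 3.5e-05, 34.5-fold), and the melanin-concentrating hormone receptor gene mchr2 had 7.92 and 7.69 in OF + 10 Gy livers and 3.60 and 3.03 in 10 Gy livers (4.49 ± 0.84, adjusted p = 0.0023). si:dkey-224e22.2 differed by 4.23 ± 0.58 (adjusted p = 9.1e-05). The acetyl-CoA hydrolase gene acot12 had uneven values of 6.65 and 10.55 in OF + 10 Gy livers, against 2.96 and 2.98 in 10 Gy livers (5.62 ± 0.95, adjusted p = 0.00088). All 5 genes remained called whichever array was left out, and on both OF + 10 Gy arrays they lay above the other 19 arrays. For each gene the highest value of those 19 arrays also came from a liver with OF, but other arrays with OF were low. In HBx,src,p53- DIO OF + 10 Gy livers the highest values were 8.38 for LOC568883, 6.06 for mchr2 and 6.23 for acot12. The lowest values of that group were 4.26, 3.16 and 3.12. HBx,src,p53- DIO 10 Gy livers had at most 4.04, 3.25 and 3.33. In wild-type OF + 40 Gy livers the highest values were 5.03 for cusr and 4.87 for si:dkey-224e22.2. The other array of that group had 1.58 and 2.02. In HBx,src DIO fish at 40 Gy, the means with and without OF were 2.59 and 2.49 for LOC568883. They were 1.85 and 1.82 for cusr, 2.511 and 2.498 for mchr2, 2.17 and 2.06 for si:dkey-224e22.2, and 2.03 and 2.35 for acot12. slc27a6, a fatty acid transporter gene (6.37, adjusted p = 0.039), pde1cb (4.58, 0.027) and ddc, the dopa decarboxylase (5.37, 0.031), were as large but lost their calls whichever array was left out (0.14 to 0.17, 0.092 to 0.15 and 0.11 to 0.17). A list of 30 genes, most of them followed by the study, held 4 lower genes, the proliferation genes ccne1, cdk1, cdk2 and pcna (13.3%, against 6.53% of all genes). The fibrosis markers col1a1a, col1a1b, ccn2a and hpse were not called (-0.056, -0.32, 0.42 and -0.34). Also uncalled were ddah1 (0.103), hsd11b1la (1.43), asgrl1 (0.69) and tdo2a (0.68 and 0.79 for its 2 probe sets). The study reported genes of this latter group as induced by OF in its qPCR of irradiated wild-type fish. The 1 higher gene of the list, gad1a of GABA synthesis, was added to it for earlier results of these data, with 5.38 and 5.14 in OF + 10 Gy livers and 2.82 and 2.06 in 10 Gy livers (2.82 ± 0.54, adjusted p = 0.0029, and 0.051 without the second 10 Gy array).

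The difference between livers with and without OF is called the effect of OF from here on. The part of ovary RNA and of the yolk state in it was not tested. The effect at 10 Gy was compared with that in the wild-type livers at 40 Gy. There 855 genes were higher with OF (4.05%) and 160 lower (0.757%). Dose and batch cannot be told apart in this comparison. The difference between the effects passed the test for 186 genes in the higher direction (0.88%) and 1265 in the lower direction (5.99%). The lower direction held 41 of the 60 ovary genes and 52 of the 76 cell cycle genes, whose medians at 40 Gy were -0.05 and 0.01. For liver genes, apoa1a had 10.76 and 10.79 in OF + 40 Gy livers and 11.44 and 12.09 in 40 Gy livers, a difference of -0.99, so that the effects differed by 4.8 ± 0.73 (adjusted p = 0.00052). pparab had 5.20 and 5.67 in OF + 40 Gy livers and 7.02 and 6.98 in 40 Gy livers (-1.57, difference between the effects 4.16 ± 0.72, adjusted p = 0.0016). fads2 had 10.52 and 10.10 in OF + 40 Gy livers and 5.90 and 8.42 in 40 Gy livers (3.15, difference between the effects -5.92 ± 0.82, adjusted p = 0.00019). These 3 differences held whichever of the 4 arrays at 10 Gy was left out.

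Some list medians lay close together at the 2 doses and others differed in sign. Amino acid catabolism had a median of 0.96 at 10 Gy and 0.74 at 40 Gy. Its effects differed in the higher direction for 1 of 81 genes and in the lower direction for 1, beside 0.88% and 5.99% of all genes. The carnitine and fatty acid oxidation list had 0.84 and 0.65. The list of translocation and N-glycosylation had -0.45 at 10 Gy and 0.43 at 40 Gy. Of its genes 5 of 52 differed in the lower direction, beside 5.99% of all genes, and none in the higher. Ribosomal proteins had -0.59 and 0.18 with no gene differing.

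**Figure D5:**
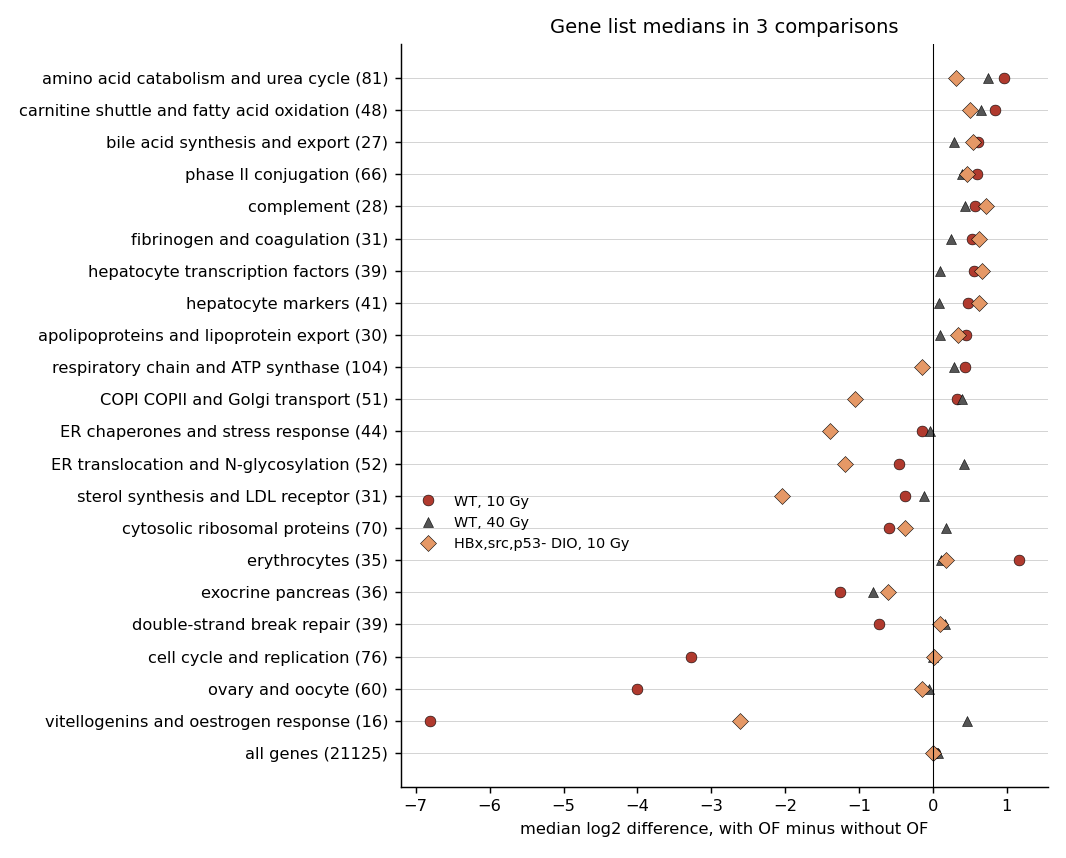
Median log2 difference, with OF minus without OF, of 21 gene lists and of all genes in 3 comparisons (red circles, wild type at 10 Gy, grey triangles, wild type at 40 Gy, orange diamonds, HBx,src,p53- DIO fish at 10 Gy), with the number of genes in brackets. Ovary and cell cycle medians are at -4.01 and -3.27 in wild type at 10 Gy and near 0 in the other comparisons, and amino acid catabolism is above 0 in all 3.

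In HBx,src,p53- DIO fish irradiated with the same 10 Gy in the same batch, 531 genes were higher with OF (2.51%) and 694 lower (3.29%). The genotype, the diet and possibly the sex of the fish differ from the wild type together. The effects differed for 368 genes in the higher direction (1.74%) and 1061 in the lower direction (5.02%), and the lower direction held 44 of 60 ovary genes and 57 of 76 cell cycle genes. The vesicle coat and Golgi list stood out on the higher side. Its median was 0.32 in wild type and -1.05 in HBx,src,p53- DIO fish, and 19 of its 51 genes differed in the higher direction (37.3%, against 1.74% of all genes) and none in the lower direction. sec31a had 6.96 to 7.62 in HBx,src,p53- DIO OF + 10 Gy livers (n = 5) and 9.14 to 9.29 in HBx,src,p53- DIO 10 Gy livers (n = 3), and its effects differed by 3.68 ± 0.58 (adjusted p = 0.00056). The respiratory chain list had medians of 0.44 in wild type and -0.14 in HBx,src,p53- DIO fish. Of its 104 genes 12 differed in the higher direction (11.5%, against 1.74% of all genes). In the list of translocation into the endoplasmic reticulum and N-glycosylation the medians were -0.45 and -1.19, and 6 of 52 genes, the same share, differed in the higher direction.

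Sterol and chaperone lists had medians of -0.37 and -0.15 in wild type and -2.04 and -1.39 in HBx,src,p53- DIO fish. In the higher direction 2 of 31 and 4 of 44 genes differed (6.45% and 9.09%, against 1.74% of all genes). Single liver genes whose differences had opposite signs between the genotypes included slc25a22a and fabp7a, beside sec31a, dhrs11b.2, idi1, nr1d1 and glula. slc25a22a had 3.2 in wild type and -0.67 in HBx,src,p53- DIO fish (difference 3.87 ± 0.81, adjusted p = 0.0082). Without the first wild-type 10 Gy array the difference was 3.41 and its call was lost. fabp7a, a fatty acid-binding protein gene, had 1.73 with an adjusted p of 0.25 in wild type, which did not pass. In HBx,src,p53- DIO fish it had -3.51 (difference 5.24 ± 0.93, adjusted p = 0.002). The HBx,src,p53- DIO groups of slc25a22a overlapped, with 7.07 to 9.22 in OF + 10 Gy livers and 8.49 to 9.19 in 10 Gy livers. fabp7a had 7.23 and 6.71 in wild-type OF + 10 Gy livers and 5.23 and 5.26 in wild-type 10 Gy livers, against 5.15 to 7.79 in HBx,src,p53- DIO OF + 10 Gy livers and 10.25 to 11.33 in HBx,src,p53- DIO 10 Gy livers. The 2 genotypes overlapped with OF and did not overlap without it.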

How the data were processed

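Total RNA of zebrafish livers was hybridised to ZebGene 1.1 ST arrays (Affymetrix) after labelling with the WT PLUS kit. The authors processed the arrays in the Transcriptome Analysis Console and deposited background-corrected, normalized and summarised log2 signals, 1 value a probe set and array. Neither labels nor methods state the version or the summarisation algorithm. The 75212 probe sets carried 1 gene symbol in 30358 cases, several in 1015 and none in 43839, which gave 21125 genes, each read from the probe set with the highest mean over the 23 arrays. A model with 8 group means was fitted to all arrays with lmFit and eBayes (limma 3.58.1 in R 4.3.3), so that the spread rested on 15 residual degrees of freedom. Contrasts were OF + 10 Gy minus 10 Gy and the differences between this effect and those at 40 Gy and in HBx,src,p53- fish. Adjusted p-values are Benjamini-Hochberg values over all probe sets, called under 0.05, and 95% intervals come from the same fit. Values under the array median had no detection call, so their size is uncertain. The hepatocyte scale is each array minus the median of its hepatocyte markers.

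Gene lists were described by counts of called members and medians, without a test of the list. Every such count from the main fit is to be read beside the shares of all genes, 2.63% higher and 6.53% lower. Counts on the hepatocyte scale are to be read beside 124 higher and 2210 lower of the 21125 genes. Genes named were those of a list built on genes that the study followed, the 15 largest called each way, the 15 largest called each way in liver lists, up to 4 members of each list by p, all vitellogenins and apolipoproteins, and the 5 liver genes each way with the largest called differences between effects, of which the text gives a selection. The comparison, the 51 lists and the named genes were chosen with earlier results of these data known. On simulated data, 100 of 75212 probe sets were changed by a log2 difference of 1 and 100 by 2. The fit called 20 of the former and 67 of the latter, with 9 calls among the unchanged. The real comparison had 1306 probe sets higher and 2527 lower, and more calls loosen the adjusted threshold. These rates therefore do not carry over to it. The alternatives, 21 planned and 1 added after the values were seen, covered scaling, the arrays fitted, the replicate block, probe set choice, thresholds, covariates and omission of each array. Python 3.11.15 with pandas 2.3.3 made the tables.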

Additional observations from a re-analysis of the deposited data

Results flagged for a closer look

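The effect of OF at 10 Gy in wild type was compared with its effect in other groups. The 5 largest called differences each way were 20 in number (limma, adjusted over all probe sets). They came from 19 genes of the liver lists, with alg13 in both comparisons. Against wild type at 40 Gy, where dose and batch cannot be told apart, the difference between the effects was -4.15 for alg13, -4.003 for scarb1, -5.92 for fads2, 4.16 for pparab and 4.8 for apoa1a. These 5 passed the test whichever array at 10 Gy was left out. scarb1 had 3.36 and 4.11 in OF + 40 Gy livers and 3.04 and 2.97 in 40 Gy livers, where its level was low in both groups. For alg13 and scarb1 both wild-type 10 Gy arrays lay above the other 19 arrays, as for the called ovary genes.

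Differences that did not hold without some arrays were -13.34 for cyp2k6 (adjusted p = 0.023, and 0.066, 0.067 and 0.084 without the first 10 Gy, the second 10 Gy and the first OF + 10 Gy array), -3.95 for elovl2 (adjusted p = 0.018, and 0.081 and 0.068 without the first 10 Gy and the second OF + 10 Gy array) and 4.15 for g0s2, a lipolysis inhibitor gene (adjusted p = 0.041, and 0.167, 0.062 and 0.134 without the second 10 Gy array and either OF + 10 Gy array). The differences of 9.10 for slc38a3a (adjusted p = 0.043) and 13.63 for hsd17b3 (adjusted p = 0.02) were lost whichever array was left out (0.10 to 0.11 and 0.055 to 0.063). cyp2k6 had 9.08 and 7.52 in OF + 40 Gy livers and 1.63 and 2.47 in 40 Gy livers, the opposite order to that at 10 Gy. hsd17b3 had 1.88 and 1.87 in OF + 40 Gy livers and 7.27 and 8.91 in 40 Gy livers.

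Against HBx,src,p53- DIO fish at 10 Gy, the difference was -4.36 for alg13, -3.59 for tpi1a, -3.18 for oxct1a, 3.68 for sec31a and 5.24 for fabp7a, and these held whichever wild-type array was left out. It was 3.87 for slc25a22a (0.065 without the first 10 Gy array) and 3.57 for dhrs11b.2, a reductase gene (adjusted p = 0.0074, and 0.052 without the first 10 Gy array). It was 4.03 for idi1 of isoprenoid synthesis (adjusted p = 0.015, and 0.096, 0.062 and 0.058 without the first 10 Gy array and either OF + 10 Gy array). The clock repressor gene nr1d1 differed by -4.67 (adjusted p = 0.012, and 0.051 and 0.114 without the second 10 Gy and the first OF + 10 Gy array) and the glutamine synthetase gene glula by -4.46 (adjusted p = 0.023, and 0.168 and 0.127 without the second 10 Gy and the second OF + 10 Gy array). In wild type alone, idi1, nr1d1 and glula did not pass the test (0.89, -2.06 and -1.39). nr1d1 had 4.51 and 7.15 in OF + 10 Gy livers and 7.82 and 7.95 in 10 Gy livers. For alg13, tpi1a and oxct1a both wild-type 10 Gy arrays lay above the other 19 arrays, as for the called ovary genes.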

How the results depend on the processing

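With the ovary list mean as a covariate, 19 genes and 77 probe sets were higher and 39 and 82 lower, of which 0 of the 19 and 35 of the 39 genes were among the 555 and 1380 called without it, and the effects differed from 40 Gy for 56 genes and from HBx,src,p53- fish for 70. With the vitellogenin mean the counts were 59 and 280 higher, 901 and 1591 lower (35 of the 59 and 818 of the 901 genes shared), and 870 genes that differed from 40 Gy. Centred on hepatocyte markers, 124 genes and 283 probe sets were higher and 2210 and 4607 lower. Fitted to the 4 arrays alone, 142 genes and 361 probe sets were higher and 651 and 1185 lower. Quantile normalization over all arrays gave 361 genes and 733 probe sets higher, averaging the probe sets of each gene 910 genes higher, and dropping dim probe sets 1545 probe sets lower. At an adjusted p under 0.01, 177 genes and 405 probe sets were higher, and 855 genes differed from 40 Gy and 896 from HBx,src,p53- fish. The study's own thresholds (at least 2-fold and unadjusted p under 0.05) gave 1331 genes and 3523 probe sets higher and differences for 3571 and 2981 genes. With 1 array left out, 219 to 288 genes and 576 to 863 probe sets were higher. The cause of these changes was not tested. The other alternatives kept each count within 1.5 times, but not always with the same genes. The fit to the second batch alone called 597 genes higher and 1219 lower, of which 362 and 1141 were among the 555 and 1380. With the replicate block 289 of 392 and 1104 of 1159 were shared. Without the HBx,src,p53- DIO OF + 10 Gy group 451 of 589 and 1291 of 1394 were shared. The replicate numbers did not pair the arrays (correlation of the deviations of same-numbered arrays -0.0137), and with the replicate block 392 genes were higher and 1159 lower.

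Of the 98 called genes named here, 61 to 65 were still called with 1 array left out, 92 with quantile normalization, 80 on the hepatocyte scale, 58 with the 4 arrays alone, 37 with the vitellogenin covariate and 4 with the ovary covariate. The sign turned only with a covariate, at adjusted p-values from 0.11 upwards. With the ovary covariate the difference was -2.14 for apoa4b.1, -0.39 for mat1a, -0.085 for gls2a, -0.85 for slc7a2, -0.22 for mogat3b, -1.36 for ugt5b4, -0.91 for gpx1a, -0.49 for akr1b1.1, 3.33 for pmaip1, 2.3 for epcam, 0.035 for tmprss4a and 1.62 for ctss2.1. With the vitellogenin covariate it was 0.62 for vtg3, 0.93 for vtg5, -0.24 for slc27a6, -0.079 for pde1cb and -0.31 for ddc. With 2 arrays a group, small differences can be missed. Signals below the array median are uncertain in size, and signals near the top of the scale may be compressed.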

Other observations

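The 5 arrays of HBx,src,p53- DIO OF + 10 Gy livers, in the order of their replicate numbers, had vitellogenin means of 4.39, 12.24, 12.28, 5.24 and 12.33 and hepatocyte marker medians of 12.28 for the first, 12.26 for the fourth and 11.71 to 11.82 for the other 3. The 3 arrays of HBx,src,p53- DIO 10 Gy livers had vitellogenin means of 12.54 each and hepatocyte marker medians of 11.36, 11.45 and 11.24. In wild type at 10 Gy, the arrays with low vitellogenin means (4.01 and 2.74 in OF + 10 Gy livers) also had the higher hepatocyte marker medians (12.37 each, against 11.95 and 11.67 in 10 Gy livers). Wild-type livers at 40 Gy had low vitellogenin means both with OF (5.05 and 5.20) and without (3.82 and 3.55), with hepatocyte marker medians of 11.58 and 11.93 with OF and 11.27 and 11.68 without.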
